A study of Homo sapiens with 9 samples.

Results

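In control LNCaP cells, 4309 strong regions of trimethylated lysine 27 on histone H3 (H3K27me3) held no listed EZH2 peak. They were chosen by the deposited control values themselves: at least 30.3 normalised tags in the H3K27me3 list, a place on chromosomes 1 to 22 or X, and no shared base with a peak of the control EZH2 list. The control list held 86120 H3K27me3 regions, of which 85023 lay on those chromosomes and 8322 reached the tag minimum. The other 4013 strong regions held at least 1 EZH2 peak and are called EZH2-bound strong regions here. A further 72106 regions had neither the tags nor an EZH2 peak, and 4595 had an EZH2 peak below the tag minimum. "Without EZH2" means without a listed peak: 37649 putative control EZH2 peaks were found by the caller, and 14528 of them were removed because they did not stand out from their surroundings. The part of that filter in the regions' lack of a peak was not tested.

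LNCaP cells are a long-established line from a human prostate tumour. The shEZH2 cells had been infected with a lentivirus that knocks EZH2 down and were fixed 2 to 3 days later, and the control cells are labelled plko.1, a lentiviral vector for short hairpins. No agent other than the virus is named for either group. Chromatin immunoprecipitation with sequencing gave 1 library per group for EZH2, H3K27ac and H3K27me3, and another 3 samples were not used here. The series title asks whether EZH2 acts as a transcription activator apart from Polycomb and methylation. The hairpin sequence and the share of infected cells are not given in the sources used here, and the cell line was not checked by markers, since no gene annotation of the files' build (hg19) was used.

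EZH2 is the methyltransferase within Polycomb repressive complex 2 and places H3K27me3. The complex is recruited to nucleation sites, often CpG-rich promoters of silenced developmental genes, and its EED subunit binds H3K27me3 already in place, which stimulates the enzyme and lets the mark extend over neighbouring nucleosomes. Broad H3K27me3 domains can therefore carry the mark far from a sharp EZH2 peak, and acetylation of the same residue (H3K27ac), found at active promoters and enhancers, cannot sit on the same histone tail.

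The H3K27me3 libraries held 26241104 tags in shEZH2 cells and 33289172 in control cells. The EZH2 libraries held 14514395 tags and 9493 listed peaks in shEZH2 cells, against 13331155 tags and 23060 peaks in control cells. The H3K27ac libraries held 22175405 tags in shEZH2 cells and 17438009 in control cells. Tags were scaled by the authors to 10000000 per library. The H3K27me3 lists were called at different settings: a shEZH2 region needed 9.53 normalised tags per kb over windows of 1000 bp, and a control region 26.0 per kb over windows of 150 bp. With 1 library per group no difference could be set against a spread between cultures. Regions are not replicates, so each 95% interval covers the counting of regions and nothing else.

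The tag minimum fell inside a continuous range of values and separates no natural classes. It corresponds to 101 sequenced tags, with an exact Poisson interval of 24.7 to 36.9 normalised tags, and 1184 of the 4309 strong regions without EZH2 (27.5%) lay at or below the upper bound. Another 1600 EZH2-free regions lay between the lower bound and the minimum. Members up to 36.9 tags had a median width of 1078 bp and a median density of 30.7 normalised tags per kb, and the 1600 regions just under the minimum had 909 bp and 29.9 per kb. Among those exactly at the minimum were chr1:4066147-4067139, chr1:4460687-4461897 and chr1:5818981-5819913, with 30.3 tags each. The nearest EZH2-free regions under it, such as chr1:3020599-3021473, chr1:4184348-4185347 and chr1:12857408-12858436, held 30 tags each.

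Strong regions without EZH2 were broad and of moderate density. Their median width was 1422 bp (95% interval 1404 to 1447, quartiles 1142 and 1982), with a range of 312 to 44880 bp. The EZH2-bound strong regions were 1565 bp wide at the median (1533 to 1601), and the EZH2-free regions below the minimum 193 bp. At least 1 kb of width was reached by 87.8% of the strong regions without EZH2, 85.8% of the EZH2-bound ones and 0.663% of the EZH2-free regions below the minimum. The tag minimum favours wide regions, so the contrast in width with regions below it is in part built in. The median number of normalised tags was 46, with quartiles of 36 and 67.3 and a maximum of 11251.4. The EZH2-bound strong regions held 63.1 tags at the median (quartiles 43 and 97.6).

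The tag number followed width more closely than density. Over the 4309 strong regions without EZH2 the Spearman correlation of tags was 0.874 with width and 0.395 with density, as a description over regions that share 1 library. Their median density was 32.8 normalised tags per kb (quartiles 29.6 and 37.6). The EZH2-bound strong regions had 39.8 per kb (quartiles 33.8 and 48.0), and the EZH2-free regions below the minimum 28.1 per kb. By these medians, the density of the strong regions without EZH2 lay nearer to that of the weak regions than to that of the EZH2-bound strong ones. Their width lay near that of the EZH2-bound ones. However, a control region needed 26.0 normalised tags per kb to be called, and the weak regions' median lay close to that threshold. At such densities a region reaches the tag minimum mainly by width. The width of both strong classes and the correlation of tags with width are therefore in part built in. The part of the call threshold in the density contrast was not tested. Since the tag minimum chose the strong regions, both values are descriptions.

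**Figure D1:**
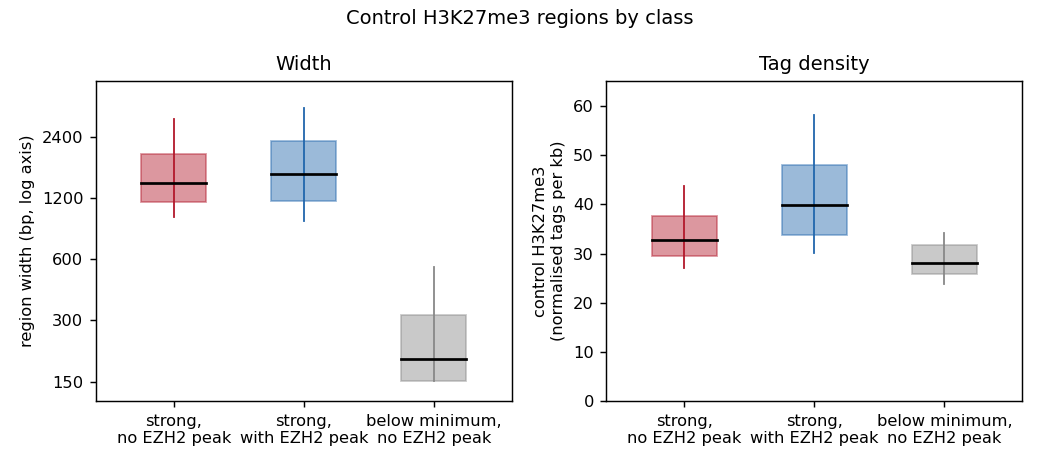
Width in bp (left, log axis) and tag density in normalised tags per kb (right) of control H3K27me3 regions, for the strong regions without an EZH2 peak, the strong regions with one and the EZH2-free regions below the minimum. Boxes span the quartiles, black lines are medians and thin lines run between the 10th and 90th percentiles. Both strong classes, chosen by the tag minimum, are wide, with medians of 1422 and 1565 bp. Median density was 32.8 per kb without EZH2 and 39.8 per kb with it.

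EZH2 peaks lay close to most of these regions. The median distance to the nearest control EZH2 peak was 5804 bp (5525 to 6161, quartiles 1982 and 15426), and the distances ran between 6 bp and 1994696 bp. A peak lay within 1 kb of 577 strong regions without EZH2 (13.4%), within 5 kb of 1972 (45.8%), within 10 kb of 2783 (64.6%) and within 50 kb of 3975 (92.2%). The EZH2-free regions below the minimum lay farther off, with a median of 15737.5 bp, and 7.39%, 27.7%, 40.6% and 73.4% of them were inside the same 4 distances. Width and density hardly varied with distance: the Spearman correlations over the strong regions without EZH2 were 0.070 for width and -0.091 for density.

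The share of EZH2-free regions that were strong was lower at greater distance. It was 9.77% within 1 kb of an EZH2 peak, 9.13% at 1 to 2.5 kb, 8.34% at 2.5 to 5 kb and 7.98% at 5 to 10 kb. Beyond that it was 6.08% at 10 to 25 kb, 2.95% at 25 to 50 kb, 2.15% at 50 to 100 kb and 1.40% at 100 to 250 kb. At more than 250 kb it was 1.27%, or 40 of 3149 regions. The decline was therefore gradual over the first 25 kb, and most of it lay between 10 and 50 kb. The rule used both the control tags and the control EZH2 list. These distances and shares are therefore descriptions, and the part of the call threshold in them was not tested.

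**Figure D2:**
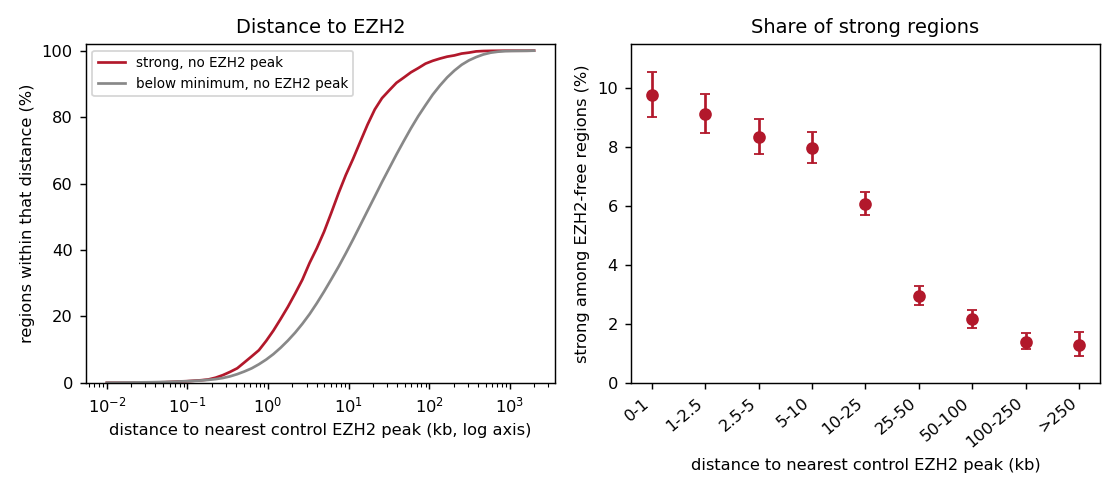
Left, the cumulative share (%) of EZH2-free H3K27me3 regions within a given distance of the nearest control EZH2 peak (kb, log axis), for strong regions and regions below the minimum. Right, the share (%) of EZH2-free regions that were strong in each distance class, with 95% exact binomial intervals over regions. The strong regions lie nearer to EZH2 peaks, with 64.6% against 40.6% within 10 kb, and they make up 1.27% of EZH2-free regions at more than 250 kb and 9.77% within 1 kb.

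The peak nearest to a strong region without EZH2 was mostly one that itself lay on H3K27me3. That held for 3380 of the 4309 regions (78.4%), whereas 41.8% of all 22630 control EZH2 peaks on these chromosomes touched H3K27me3 alone. The nearest peak touched neither histone mark for 618 regions (14.3%), H3K27ac alone for 205 (4.76%) and both marks for 106 (2.46%). Among all control EZH2 peaks those shares were 23.9%, 32.3% and 2.04%. Peaks nearest to an H3K27me3 region are drawn from around the mark, and the shares for EZH2-free regions below the minimum were not computed. Nothing particular to the strong regions is therefore read from this contrast. The median distance was 5191.5 bp where the nearest peak lay on H3K27me3 alone and 25927 bp where it lay on H3K27ac alone. The strong regions without EZH2 shared nearest peaks: 2491 different peaks served all 4309.

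Few of the regions had EZH2 close by on both sides. A peak lay within 10 kb on both sides of 844 strong regions without EZH2 (19.6%), on 1 side of 1939 and on neither side of 1526 (35.4%). The median distance to the nearest EZH2-bound strong region was 10644 bp, and 2103 regions (48.8%) had one within 10 kb. Strong regions without EZH2 lay nearer to each other, with a median of 3273 bp to the next one and 66.3% within 10 kb. An EZH2-bound strong region had its next EZH2-bound neighbour at a median of 35786 bp.

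Nearness to EZH2-bound regions was described by joining control H3K27me3 regions over gaps of up to 5 kb into domains. Such domains show which regions are neighbours, and whether the mark spread from an EZH2-bound region was not tested. Of 28593 domains, 1930 held a strong region without EZH2. An EZH2-bound strong region lay in 880 of these, which together held 2797 of the 4309 strong regions without EZH2 (64.9%), and 271 domains with weaker EZH2-bound regions held another 9.61%. The remaining 779 domains, with 1098 strong regions (25.5%), had no EZH2 peak in any of their regions and are called domains without EZH2 or EZH2-free here. Peaks between or beside their regions did not count, and 51 of these 1098 had an EZH2 peak within 1 kb. Altogether 3211 strong regions without EZH2 (74.5%, interval 73.2 to 75.8) shared a domain with an EZH2-holding region, against 37.4% of the EZH2-free regions below the minimum. A strong region is wide, which by itself brings it nearer to its neighbours, and the part of width in this difference was not tested.

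Domains that combined both kinds of strong region were long and mostly free of EZH2 peaks. The 880 mixed domains spanned a median of 24057 bp, and the 779 domains without EZH2 spanned 9598 bp. A mixed domain holds a strong region of each kind by definition, whereas 606 of the 779 held a single strong region. This contrast in span is therefore in part built in. In the mixed domains 2188 of 16974 regions (12.9%) held an EZH2 peak, and the EZH2-free regions carried 60.9% of the tags. The region of most tags held an EZH2 peak in 614 of the 880 (69.8%), and the densest region did in 541 (61.5%). Every mixed domain holds an EZH2-bound strong region by its definition, so both shares are in part built in. The 12.9% takes in the regions below the tag minimum and is no baseline for them.

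Within a mixed domain the strong regions without EZH2 were less dense than their EZH2-bound neighbours. The median density of the strong regions without EZH2 minus that of the EZH2-bound strong regions was -5.98 normalised tags per kb (-6.75 to -4.99) over the 880 domains, and it was lower in 689 of them. The median width differed by -405.5 bp and was lower in 610. Tags, which the rule used for both classes, enter both measures, so these are descriptions too. The domain with most members was chr20:60329309-60530093, a stretch of 200.8 kb with 103 regions, of which 35 were strong without EZH2 and 11 held EZH2. The next were chr17:77091997-77300016 with 34 strong regions without EZH2 and chr12:132821638-133002771 with 33.

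Some dense clusters had no EZH2 peak of their own. Of the 779 domains without EZH2, 606 held a single strong region, and the highest number was 11, at chr7:2948784-2987374. That stretch of 38.6 kb had 25 regions, its 11 strong ones held 31.8 to 123.8 normalised tags, and the nearest control EZH2 peaks lay 3077 to 37274 bp away from them. In shEZH2 cells all 11 lay in 1 region of 39758 bp with 1144.4 tags. The log2 ratio of tag density, shEZH2 over control, was -0.59 to 0.13 for these 11, with a median of -0.25. Peaks of the shEZH2 EZH2 list touched 2 of them.

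Several other EZH2-free domains held 7 strong regions each, and the pair with most tags is described. At chr4:190983886-191028581, 44.7 kb long, the 7 held 75.7 to 911.4 normalised tags in control cells. All 7 lay in 1 shEZH2 region of 29128 bp, so their log2 ratios, 0.17 to 0.56, share 1 shEZH2 density. No shEZH2 EZH2 peak touched any of these 7. At chr19:8847708-8903008, 55.3 kb long, the 7 held 70.9 to 625.1 tags. They too lay in 1 shEZH2 region, of 58038 bp, and had log2 ratios of -0.11 to 0.20. Peaks of the shEZH2 EZH2 list touched 4 of them, although the nearest control EZH2 peak lay at least 42736 bp away. The median log2 ratios of these domains, 0.22 on chromosome 4 and -0.064 on chromosome 19, lay above the -0.46 of all strong regions without EZH2. Both shEZH2 regions were wider than 20 kb, and strong regions without EZH2 in such wide shEZH2 regions had a median of -0.30. Whether the tags of these domains come from repeated sequence was not tested.

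**Figure D3:**
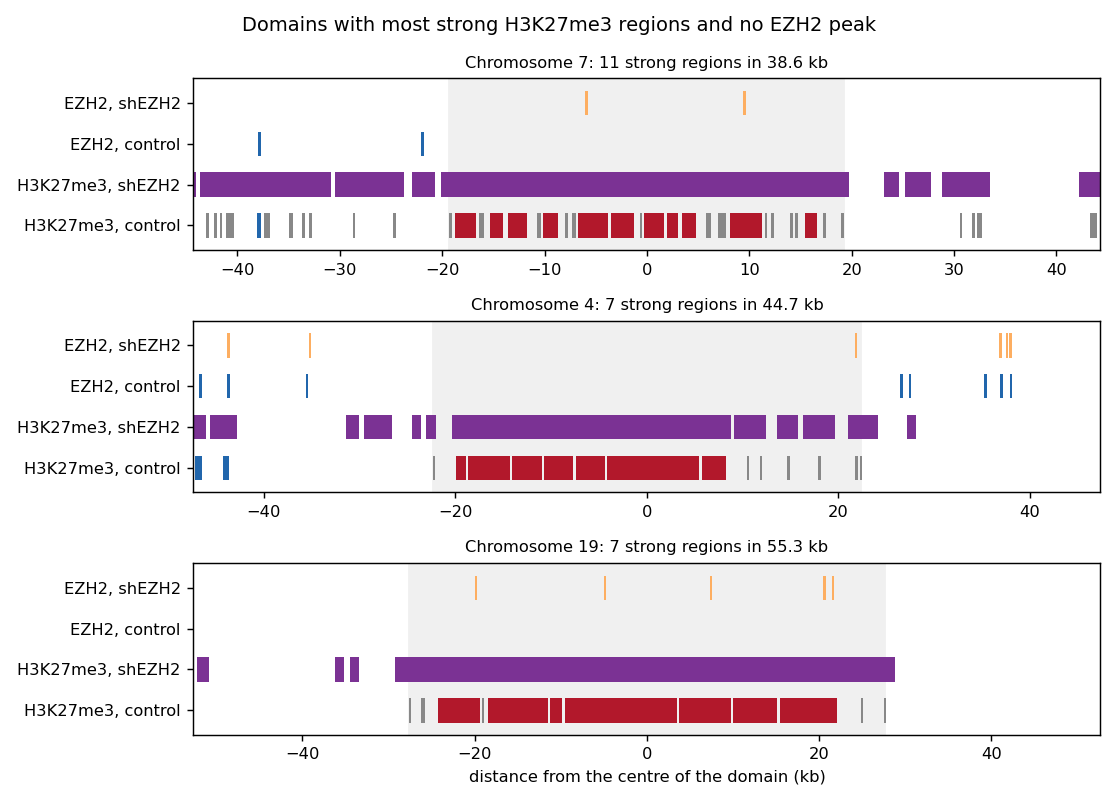
The 3 EZH2-free domains with most strong H3K27me3 regions (ties broken by tags), drawn by distance from the domain centre (kb) and cut 25 kb beyond each end. Rows show listed shEZH2 EZH2 peaks, control EZH2 peaks, shEZH2 H3K27me3 regions and control H3K27me3 regions; in the control H3K27me3 row, red marks strong regions without EZH2, grey marks EZH2-free regions below the minimum, blue marks regions with a control EZH2 peak, and shading marks the domain. No control EZH2 peak lies in the shaded stretches, and the separate control regions fall into shEZH2 regions of up to 58038 bp.

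The regions of most tags were few and very wide. Away from the longest gap that each chromosome has between listed regions, the highest value was at chr19:36759208-36800888, with 5194.2 normalised tags over 41681 bp. The shEZH2 region there held 5806.5 tags over 46587 bp, and the densities were 124.6 per kb in both, for a log2 ratio of 0.00023. The second, chr19:37759484-37796316, held 5159.8 tags in shEZH2 cells and 4684.1 in control cells (log2 ratio of density 0.056). The third, chr1:228742587-228782623, held 3087.9 tags in shEZH2 cells and 2533.6 in control cells, over wider bounds in shEZH2 cells (log2 ratio -0.13).

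These 3 regions also touched H3K27ac in both groups, and their tag numbers were higher in shEZH2 cells over wider bounds, at nearly the same density. The fourth, chr8:58118200-58126844, had 1433.2 tags over 19794 bp in shEZH2 cells and 1105.5 over 8645 bp in control cells, so its density was lower in shEZH2 cells (log2 ratio -0.82). The last of the 5, chr15:102291664-102306261, had 1071.2 tags in shEZH2 cells and 975.7 in control cells (log2 ratio 0.0011). By width the list of 5 took in chr4:132669899-132685846, with 15948 bp and a log2 ratio of 0.23, and chr1:3005466-3020307, with 14842 bp and a log2 ratio of 0.0064. The sequence content of these regions was not used here, so whether their tags come from repeated sequence was not tested.

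A few strong regions lay very far from any EZH2 peak. The farthest, chr5:23491827-23493214, was 1994.7 kb from the nearest control EZH2 peak and held 70.6 normalised tags, with a log2 ratio of -1.27. The second, chr8:34335788-34337763, lay 755.6 kb away and held 61.3 tags (log2 ratio -0.55). The third, chr4:30718951-30725040, lay 664.3 kb away, held 333.1 tags, had a log2 ratio of -0.11 and touched a peak of the shEZH2 EZH2 list. Next came a pair of neighbours, chr3:187342208-187343425 and chr3:187340861-187341891, at 485.0 and 483.7 kb. Apart from the region on chromosome 4, these remote regions had at most 70.6 tags.

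After EZH2 knockdown, nearly every strong region without EZH2 was still called for H3K27me3. A shEZH2 H3K27me3 region touched 4308 of 4309 (99.98%), against 4008 of the 4013 EZH2-bound strong regions (99.88%) and 94.0% of all control regions. The difference between the strong classes was 0.101 points (-0.0282 to 0.269), which includes 0. The share was 93.1% for the EZH2-free regions below the minimum, and 4291 of the strong regions without EZH2 were covered over their whole width. The exception was chr16:33957767-33959541, with 177.2 control tags, which lies within 2 Mb of the longest unlisted gap of its chromosome. Since the shEZH2 list needed less density for a call, presence on it says little of the level.

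In shEZH2 cells the strong regions without EZH2 lay inside wide regions. The 4308 regions fell into 2512 shEZH2 regions with a median width of 10373 bp, of which 1291 also held a control EZH2 peak and 1221 did not. Counted over the members, the shEZH2 region around a strong region without EZH2 had a median width of 14991 bp, and that around an EZH2-bound strong region 7649.5 bp. A median of 43.2% of a shEZH2 region holding a member was covered by control regions. The density of a shEZH2 region therefore averages in flanking sequence that the control list left out.

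The density of H3K27me3 on the deposited scale was lower in shEZH2 cells, and among strong regions less so where there was no EZH2 peak. Strong regions without EZH2 had a median of 24.3 normalised tags per kb in shEZH2 cells and 32.8 per kb in control cells, and EZH2-bound strong regions had 24.7 per kb in shEZH2 cells and 39.8 per kb in control cells. The median log2 ratio, shEZH2 over control, was -0.46 (-0.47 to -0.44) for the strong regions without EZH2, -0.68 (-0.69 to -0.66) for the EZH2-bound ones and -0.91 for the EZH2-free regions below the minimum. Below the minimum the order was the other way, with -0.88 for the regions with an EZH2 peak. The contrast with the EZH2-free regions below the minimum varied with shEZH2 region width. Under 5000 bp the medians were -0.71 for the strong regions without EZH2 and -1.12 for those weak regions. They were -0.56 and -0.83 at 5000 to 10000 bp, and -0.50 and -0.60 at 10000 to 20000 bp. At 20000 bp or more they were -0.30 and -0.33, with overlapping intervals. The pooled contrast with the weak regions is therefore not one at like width. The difference of medians between the strong classes was 0.22 (0.20 to 0.24). The strong classes thus differed in control density and had nearly the same median shEZH2 density, although 61.1% of the strong regions without EZH2 took theirs from a shEZH2 region that also held a control EZH2 peak. The others had a median of 20.8 per kb in shEZH2 cells.

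A shEZH2 density at most 1/2 of the control density, a log2 ratio of -1 or below, was found for 256 strong regions without EZH2 (5.94%), 724 EZH2-bound ones (18.1%) and 38.0% of all regions called in both lists. A ratio above 0 was found for 434 strong regions without EZH2 (10.1%), 85 EZH2-bound ones (2.12%) and 4.04% of all. Of the 79960 regions called in both lists, 67152 were EZH2-free regions below the minimum, of which 41.4% had a ratio of -1 or below. Their median control width was 193 bp, and no shEZH2 region around them was narrower than 1001 bp. The shares of all regions are therefore no baseline of like width. As the caller settings differ between the lists, the ratio is read here only between classes, and a ratio below 0 is no measure of loss. Only 4 strong regions without EZH2, each with at least 50 tags, paired with a single shEZH2 region of like width. Among these the log2 ratio was 0.056 at chr19:37759484-37796316, 0.0011 at chr15:102291664-102306261, -0.12 at chr3:197825662-197832790 and -0.80 at chr20:58629728-58631694, which had 46.9 tags in shEZH2 cells and 66.7 in control cells.

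Control density enters the ratio, so the classes were also set side by side at like control density. The medians of the strong regions without EZH2 were -0.36 under 28 normalised tags per kb, -0.41 at 28 to 32, -0.46 at 32 to 36, -0.54 at 36 to 42 and -0.61 at 42 or more. For the EZH2-bound strong regions they were -0.39, -0.50, -0.58, -0.65 and -0.86 in the same bins. The intervals of the classes overlapped in the lowest bin and were apart in the other 4. Weighted over these bins the difference was 0.11, against 0.22 without them, so it moved by more than 1.5 times.

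The difference was smaller again where the shEZH2 region around a strong region without EZH2 held no control EZH2 peak. The 1677 such regions had a median log2 ratio of -0.61 (-0.63 to -0.59) and their medians in the 5 bins of control density were -0.48, -0.57, -0.67, -0.73 and -0.79. These were below those of the EZH2-bound strong regions in 4 of the 5 bins, with intervals apart in the 3 lowest, so the direction of the difference between the classes turned there. In bins of shEZH2 region width the result was another: their medians were -0.72 under 5 kb, -0.65 at 5 to 10 kb, -0.57 at 10 to 20 kb and -0.36 at 20 kb or more, against -0.64, -0.74, -0.76 and -0.51 for the EZH2-bound strong regions. They were thus below the EZH2-bound ones under 5 kb and above them in the other 3 width bins, and the direction depends on the binning. The 2631 strong regions without EZH2 whose shEZH2 region did hold a control EZH2 peak had a median of -0.36. The shEZH2 region then takes in the EZH2-bound stretch as well, and its tags cannot be told apart from those at the strong region itself.

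**Figure D4:**
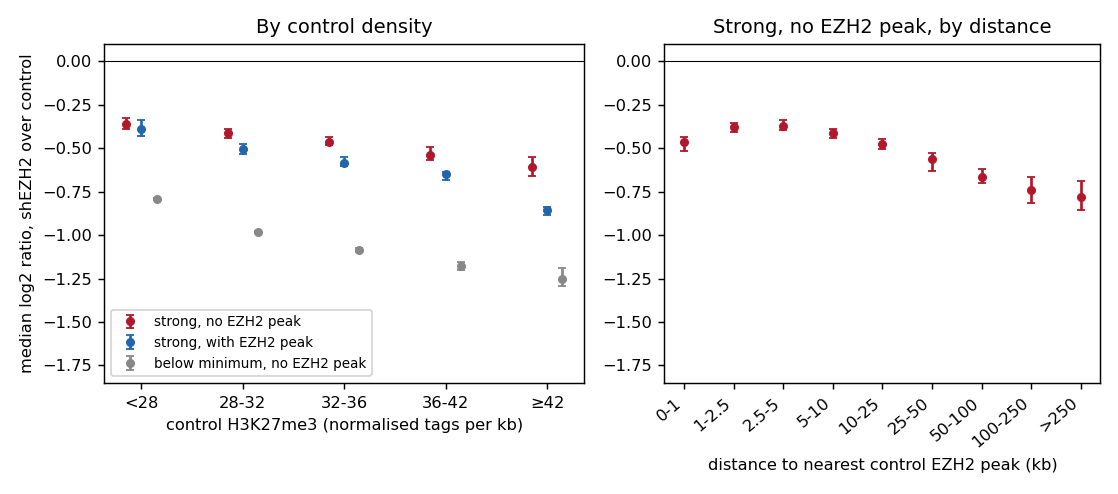
Median log2 ratio of H3K27me3 tag density, shEZH2 over control, with 95% order-statistic intervals over regions. Left, by control density (normalised tags per kb) for the strong regions without EZH2, the strong regions with EZH2 and the EZH2-free regions below the minimum; right, by distance of the strong regions without EZH2 to the nearest control EZH2 peak (kb). At 42 or more tags per kb the strong medians are -0.61 without EZH2 and -0.86 with it, and with distance the median reaches -0.78.

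Among the strong regions without EZH2, the ratio was lowest far from EZH2 peaks. The median was -0.46 within 1 kb, -0.38 at 1 to 2.5 kb, -0.37 at 2.5 to 5 kb and -0.41 at 5 to 10 kb. It was -0.47 at 10 to 25 kb, -0.56 at 25 to 50 kb, -0.66 at 50 to 100 kb, -0.74 at 100 to 250 kb and -0.78 beyond. Strong regions without EZH2 in a domain with an EZH2-holding region had a median of -0.39, and those in a domain without one had -0.66.

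The width of the shEZH2 region moved with distance too, with a median of 18883.5 bp at 2.5 to 5 kb and 5278 bp beyond 250 kb. Within shEZH2 regions of 5 to 10 kb the median ratio was -0.48 (-0.52 to -0.45) at up to 10 kb from an EZH2 peak, -0.67 (-0.72 to -0.62) at 10 to 50 kb and -0.72 (-0.79 to -0.66) beyond. It was -0.47, -0.55 and -0.69 at the same distances within shEZH2 regions of 10 to 20 kb, with intervals apart, and -0.64, -0.74 and -0.76 within those under 5 kb, where the intervals overlapped. Within shEZH2 regions of 20 kb or more the 3 medians were -0.31, -0.29 and -0.30, the last over 34 regions. At like width the lower ratio at greater distance was thus seen in 3 of the 4 width bins, with overlapping intervals under 5 kb, and not in the widest regions. Of the 2783 strong regions without EZH2 within 10 kb of an EZH2 peak, 2342 took their ratio from a shEZH2 region that held a control EZH2 peak. There the tags of the EZH2-bound stretch cannot be told apart from those at the strong region, so the part of distance itself was not tested.

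EZH2 peaks of the shEZH2 list seldom touched these regions. They touched 367 of the 4309 strong regions without EZH2 (8.52%, interval 7.70 to 9.39), 2537 of the EZH2-bound strong regions (63.2%), 0.649% of the EZH2-free regions below the minimum and 5.10% of all control regions. The difference between the strong classes was -54.7 points (-56.4 to -53.0). Per Mb of sequence the shEZH2 EZH2 list had 49.5 peaks in strong regions without EZH2, 456 in EZH2-bound strong regions and 19.7 in EZH2-free regions below the minimum. The rule excluded control EZH2 peaks, so a low share in the second EZH2 library is in part what it chose. The shEZH2 EZH2 list also needed more density for a call than the control one, and the part of that setting was not tested.

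The shEZH2 EZH2 peaks at strong regions without EZH2 had lower median tags than those at EZH2-bound strong regions. The 396 shEZH2 EZH2 peaks at strong regions without EZH2 had a median of 9.65 normalised tags and 4.895-fold more tags than the local surroundings, by the authors' own value per peak. Those at EZH2-bound strong regions had 12.4 tags and 6.97-fold. The rule left out regions with a control EZH2 peak, so this contrast too is in part what it chose. The 367 regions with such a peak were wider than the others, with a median of 1830 bp against 1407 bp, and held 66.7 tags against 45.1. By width the share touched was 8.57% under 1 kb, 5.52% at 1 to 1.5 kb, 6.69% at 1.5 to 2 kb, 12.7% at 2 to 3 kb and 19.2% at 3 kb or more. The median log2 ratio of H3K27me3 was -0.45 with a shEZH2 EZH2 peak and -0.46 without one. Besides chr8:58118200-58126844 and chr4:132669899-132685846, the touched region of most tags was chr19:8865886-8878850, with 625.1.

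H3K27ac was rare on the strong regions without EZH2 and gathered at the longest gaps in the lists. Control H3K27ac regions touched 98 of 4309 (2.27%), against 212 EZH2-bound strong regions (5.28%) and 0.870% of all control H3K27me3 regions. Of the 98, 72 lay within 2 Mb of such a gap, where 224 of the 4309 (5.20%) lay. Away from these gaps 26 of 4085 strong regions without EZH2 (0.636%) and 104 of 3773 EZH2-bound ones (2.76%) touched control H3K27ac. Most of the overlap thus came from a small share of the genome.

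In shEZH2 cells H3K27ac regions touched 168 strong regions without EZH2 (3.90%), against 466 EZH2-bound ones (11.6%) and 2.25% of all. Away from the long gaps these were 82 of the regions without EZH2 (2.01%) and 337 of the EZH2-bound ones (8.93%). The H3K27ac lists were called with different windows too, and wider regions touch more of their neighbours, so the higher shares in shEZH2 cells are not read as a gain. In both libraries the strong regions without EZH2 touched H3K27ac less often than the EZH2-bound strong regions, by -7.71 points (-8.87 to -6.57) in shEZH2 cells and -3.01 points (-3.85 to -2.19) in control cells.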

How the data were processed

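The submitters' processing notes name BWA 0.6.1, HOMER 4.1 and the build hg19. Per the file headers, the authors called every list from its own library and no input was subtracted. The deposited signal is the tag number of a region after the authors' scaling to 10000000 tags per library. The score deposited with each region comes from the caller, carries no depth scaling and served only to take the upper 50% of a list. The authors' fold over local background is quoted for EZH2 peaks. The clonal fold ratio, the p-value against local tags and the focus fraction, which the authors' caller computed per the file headers, were not used for any result. The depth of each library is given with the results.

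Overlap meant at least 1 shared bp. Where several shEZH2 regions touched a control region, the one with the largest overlap was taken. Clopper-Pearson (exact binomial) intervals were used for shares, Newcombe intervals for their differences and order-statistic intervals for medians, at 95%. No p-value was computed, since each group had 1 library. Overlaps and distances were tested on simulated lists and against bedtools 2.31.1. Scripts ran in Python 3.11.15 with scipy 1.17.1, numpy 2.4.6, matplotlib 3.10.9 and pandas 2.3.3.

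The members, the rules and the lists were chosen with earlier results of these data known. Named regions, more than 2 Mb from the longest gap between listed regions on a chromosome, were the 5 of most tags, the 5 widest, the 5 farthest from EZH2, the 5 of most tags not called in shEZH2 cells (none there), the 3 highest and 3 lowest ratios of like width (within 1.25 times), the 3 of most tags touching control H3K27ac or shEZH2 EZH2, the 3 EZH2-free domains with most members and the 3 regions on either side of the minimum. The domains with most members and the uncalled region were named after their values were seen. Bins of control density and of shEZH2 width, and shEZH2 regions without an EZH2 peak, were added after the data were seen. Sequences, gene names, gene lists and promoters were not used here, as the tables at hand are of another build.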

Additional observations from a re-analysis of the deposited data

How the results depend on the processing

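No paired analysis was possible because each group had 1 library. Of the results recomputed under each setting, those that moved by more than their interval were these. A minimum of 50 tags gave 1840 strong regions without EZH2, a width of 2106.5 bp, 79.5% in an EZH2-holding domain, a ratio of -0.39, a difference in ratio from EZH2-bound regions of 0.26, 3.70% touching H3K27ac and 13.3% touching shEZH2 EZH2. Counting EZH2 within 1 kb as bound gave 1449 bp, a distance of 7378 bp and a difference of 0.19. The upper 50% of control EZH2 peaks gave 10171 bp, 62.9% in a domain and a ratio of -0.48. Both EZH2 lists together gave 4646.5 bp, 76.2% in a domain, 100% called, a difference of 0.20 and, by construction, 0% touching shEZH2 EZH2. Domain gaps of 1 and 10 kb gave 39.5% and 83.4%, so the domain share depends on that choice. Without the 2 Mb around the longest gaps 100% were called and 0.636% touched H3K27ac. The upper 50% of shEZH2 H3K27me3 regions called 75.6%, a difference of 1.82 points. The median ratio was -1.81 when scaled to tags in listed regions, -0.058 in the 4 pairs of like width (difference 0.051) and -0.61 in shEZH2 regions without an EZH2 peak (difference 0.072). Tags per region, which follow the wider shEZH2 regions, turned it to 2.78 (difference 1.40). The difference was 0.11 in bins of control density and 0.19 in bins of shEZH2 width. Pooled, it stayed above 0 under every setting here. Within bins it turned below 0 for shEZH2 regions under 5 kb (-0.71 against -0.64) and, at like control density, in 4 of 5 bins for shEZH2 regions without an EZH2 peak. For the other moves the cause was not tested. Depth limits the minimum itself, at 101 sequenced tags.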

Other observations

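Strong regions without EZH2 were not spread evenly over the chromosomes. Within 2 Mb of a chromosome's first or last listed region lay 861 of the 4309 (19.98%), against 565 of the EZH2-bound strong regions (14.1%) and 7.98% of the EZH2-free regions below the minimum. The difference between the strong classes was 5.90 points (4.29 to 7.51). The long gaps showed no such difference, with 224 (5.20%) and 240 (5.98%).

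The share of strong regions that held no EZH2 peak was lowest on chromosome 6, at 33.9% (57 of 168), on chromosome 5, at 36.2%, and on chromosome 15, at 36.9%. It was highest on chromosome 20, at 60.3% (269 of 446), on chromosome 14, at 59.4%, and on chromosome 22, at 58.8%. These 6 chromosomes were picked after the values were seen.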
